A study of Mus musculus with 16 samples.

Results

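Bile ducts are lined by cholangiocytes, epithelial cells that share a hepatoblast ancestor with hepatocytes and that modify bile by secreting chloride, bicarbonate and water. They make up a small share of liver cells, and in bulk liver RNA their transcripts lie far below those of hepatocytes. After several kinds of liver injury, cells with cholangiocyte features spread out from the portal tracts, which is called a ductular reaction. The genes described here are 6 that are widely used to mark these cells, chosen by name from the 41079 genes of the table. Krt7 and Krt19 encode keratins of simple and ductal epithelia, Epcam encodes an adhesion protein of epithelial cell membranes, and Prom1 encodes prominin, a pentaspan membrane protein often used to mark progenitor cells. Sox9 encodes a transcription factor of bile duct development, and Cftr encodes the apical chloride channel of duct cells. Each of the 6 was among the 16742 genes that passed the filter on low counts and were tested.

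The study compared old mice of each sex with and without a liver-specific deletion in the glucagon receptor gene. Polyadenylated RNA from whole liver was sequenced in 16 mice, which were 4 LKO mice and 4 CRE- controls of each sex. The mice were 20 to 22 months old and on the C57BL/6J background. Each of the 16 carried floxed Gcgr alleles, in which loxP sites flank exons of the glucagon receptor gene. LKO mice also carried an Albumin-Cre transgene, which deletes those exons where the albumin promoter is active. CRE- controls had the floxed alleles and no Cre, so that effects of Cre itself and of the deletion cannot be told apart. The albumin promoter is used for its activity in hepatocytes and their precursors, and the counts of whole liver do not show in which cells the deletion took place. The labels number the mice of each group as biological replicates.

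The libraries held from 33268424 to 56488920 counted reads. Levels are given as counts per 1000000 reads of a library (CPM) after TMM normalization, in which libraries are scaled by a trimmed mean of their ratios. For comparisons between genes they are divided by gene length in kilobases. LKO mice were compared with sex-matched controls by edgeR's quasi-likelihood test on all 16 libraries with Benjamini-Hochberg (BH) adjustment over the 16742 genes, and a gene is called a differentially expressed gene (DEG) at an adjusted p under 0.05. The mean log2 TMM factor of LKO mice less that of controls was 0.069 in males and 0.27 in females, and that of females less that of males was -0.16 among CRE- controls and 0.046 among LKO mice. With raw totals in place of TMM, ratios of mean CPM move by an amount that depends on the gene, in males from 1.12 to 1.09 for Cftr and from 1.19 to 1.33 for Prom1 on the log2 scale. The female ratios move further, from 0.27 to 0.57 for Krt7, 0.24 to 0.50 for Epcam, 0.25 to 0.50 for Sox9, -0.47 to -0.20 for Krt19, -0.67 to -0.42 for Cftr and -0.30 to -0.034 for Prom1. Between controls that of Sox9 moves from -0.15 to -0.30.

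Some libraries stood apart before any comparison. Pancreatic acinar transcripts (Cpa1, Cel, Pnlip, Ctrb1, Prss2 and Cela3b) summed to 136 CPM in male CRE- replicate 2 and to 553 CPM in female CRE- replicate 2, and to at most 1.49 CPM in the other 14 livers. Pdx1, a marker of pancreatic duct and islet lineages, had no read in either of these 2 livers. It also had none in any other control or male LKO liver and at most 2 reads in a female LKO liver. Its absence therefore does not set these 2 livers apart. Female LKO replicate 4 had 4025 CPM of Lcn2, against 9.57 to 307 CPM in the other livers, and female LKO replicate 1 had the highest sum of macrophage markers, at 2178 CPM. Values without some of these libraries are given where they end a call, turn a direction or move a value, and their part in the other results was not tested.

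Gcgr, the targeted gene, was at 190.4, 193, 127 and 189.6 CPM in male CRE- controls and at 117, 136, 129.9 and 160.4 CPM in male LKO mice. Female CRE- controls had 162, 208, 201 and 180.0 CPM, and female LKO mice had 48.8, 132, 119 and 93.6 CPM. Each female LKO mouse was below each female control, while male LKO replicates 2, 3 and 4 lay above the lowest male control. The count covers exons inside and outside the deleted part, so it is not a direct measure of the deletion. The Gcgr log2 fold change was -0.93 in females (with an SE of 0.25 and adjusted p = 0.0443 by edgeR's quasi-likelihood test with BH adjustment) and -0.37 in males (with an SE of 0.24 and adjusted p = 0.671 by the same edgeR test). The difference between the sexes was -0.57 (with an SE of 0.35 and adjusted p = 0.412 by that edgeR test). It includes female LKO replicate 1, without which the female value was -0.69. Of 16 fits that each left out 1 mouse, the female Gcgr call was kept in the 3 without male CRE- replicate 2, male CRE- replicate 3 or female LKO replicate 2, and lost in the other 13 (adjusted p between 0.0506 and 0.136 in edgeR's test). The female log2 fold change in the 16 fits was between -1.11 and -0.69. The call was also lost in edgeR's test with upper-quartile normalization (adjusted p = 0.0707), with no filter on low counts (0.0545), with at least 10 counts in every library (0.0506), with each sex fitted alone (0.132) and without the 2 acinar libraries (0.171, at -0.85 on the log2 scale).

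None of the 6 genes chosen as cholangiocyte markers was a DEG between LKO mice and sex-matched controls in either sex by edgeR. In males 0 of 6 were called, where 0.454% of all genes tested were (0.221% higher and 0.233% lower). Prom1 was the 1 member with an unadjusted p under 0.05 there, which 1595 of the 16742 genes tested had, and DESeq2 called 0 of 6 and 339 of all genes. In females 0 of 6 were called, where 4.24% of all genes tested were (2.09% higher and 2.15% lower), with 0 members and 3584 of all genes at an unadjusted p under 0.05 and with 0 members and 1809 genes called by DESeq2. The number of genes called in females was 87 without female CRE- replicate 2 and 1310 without female LKO replicate 2, and in males it was 26 without male CRE- replicate 3, against 710 and 76 with the 16 libraries. At a background of this size a count of 0 among 6 genes is not a result about these genes. The values of LKO and control mice did not separate for any of the 6 in males or in females, where the groups did not overlap for 6.49% and 11.6% of genes tested. In males 5 of 6 log2 fold changes were above 0 (6 of 6 by ratios of mean CPM under raw totals, where Krt7 turns), with a median of 0.63 against -0.0078 over all genes tested. In females 3 of 6 were above 0, with a median of -0.032 against 0.035 over all genes tested. By ratios of mean CPM under raw totals the female median of the 6 was 0.23, with 3 above 0. In bulk tissue, a change in the number of duct cells, a change in RNA per duct cell and transcripts from other cells cannot be told apart.

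**Figure D1:**
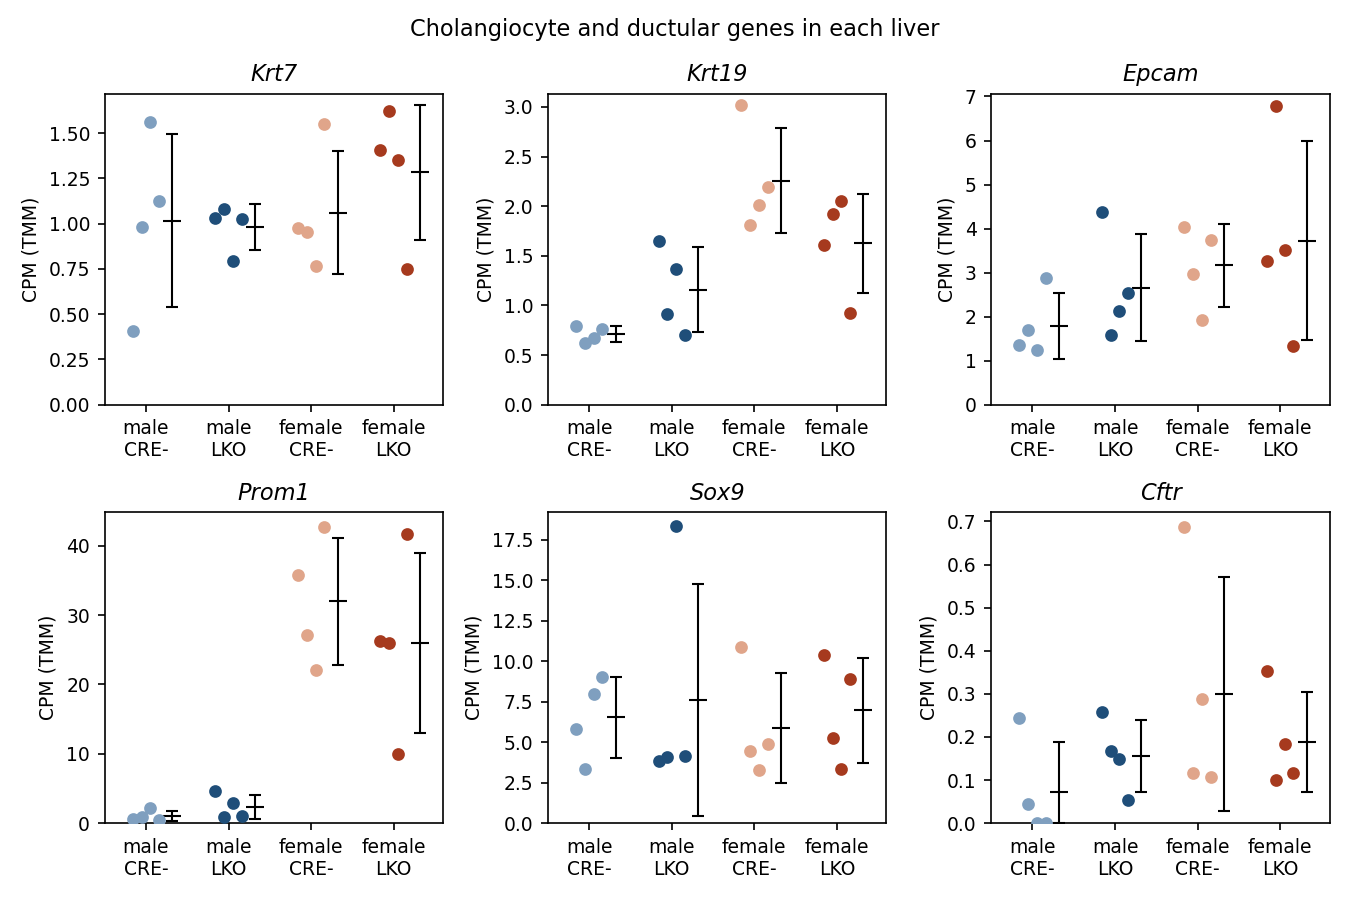
Level of each of the 6 genes in each liver, as CPM after TMM normalization on a linear axis that starts at 0 and differs between panels. Each point is 1 mouse, and the bar beside each group is the mean with 1 SD (n = 4), stopped at 0. Prom1 lies between 9.93 and 42.7 CPM in females and between 0.449 and 4.58 CPM in males, and Sox9 is at 18.3 CPM in 1 male LKO liver.

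Per length, Sox9 had the highest mean in males, at 1.58 ± 0.606 CPM per kilobase in CRE- controls and 1.83 ± 1.73 in LKO mice (SD, n = 4). The place of Sox9 among male LKO mice rests on replicate 3, without which its mean was 0.969 and that of Epcam 1.37 CPM per kilobase. In females Prom1 had the highest mean per length, at 3.58 ± 1.02 CPM per kilobase in CRE- controls and 2.91 ± 1.45 in LKO mice (SD, n = 4). Among male CRE- controls the order by CPM per kilobase was Sox9, Epcam (0.871), Krt7 (0.642), Krt19 (0.504), Prom1 (0.116) and Cftr (0.0114). Sox9, Epcam, Krt7 and Krt19 overlapped with their neighbours in that order, whereas Krt19 and Prom1, and Prom1 and Cftr, did not overlap. Among female CRE- controls the order was Prom1, Krt19 (1.59), Epcam (1.53), Sox9 (1.42), Krt7 (0.669) and Cftr (0.0475). There Prom1 lay apart from Krt19 and Krt7 lay apart from Cftr, and the 4 genes between Prom1 and Cftr overlapped with their neighbours. In both LKO groups Cftr was lowest and did not overlap with the gene above it, and the other neighbours in order overlapped.

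Krt7, a type II keratin of ductal epithelium, lies on chromosome 15 at 101310284 to 101325687 (GRCm39, plus strand). Its level was 0.406, 0.980, 1.56 and 1.12 CPM in male CRE- controls and 1.03, 1.08, 0.795 and 1.03 CPM in male LKO mice. Female CRE- controls had 0.976, 0.954, 0.766 and 1.55 CPM, and female LKO mice had 1.41, 1.62, 1.35 and 0.752 CPM. The male LKO values fell inside the range of the male controls, and in females 3 of 4 LKO mice were above 3 of 4 controls, while the lowest LKO value lay below each control and the highest control value lay above 3 of 4 LKO mice. These levels rest on 20 to 74 reads per mouse. For Krt7 the log2 fold change was -0.045 (with an SE of 0.40) in males and 0.28 (with an SE of 0.39) in females, with adjusted p = 0.983 and 0.741 by edgeR's quasi-likelihood test with BH adjustment. The male value has no settled sign. The ratio of mean CPM was -0.049 on the log2 scale with TMM and 0.054 with raw totals, and the fitted value was 0.22 without male CRE- replicate 3, 0.0091 without male CRE- replicate 4 and 0.045 without male LKO replicate 3. Under limma-voom with sample quality weights it was 0.50, and without male CRE- replicate 1 it was -0.32. For females the fit gave 0.15 without female CRE- replicate 3 or without female LKO replicate 2, 0.53 without female CRE- replicate 4, 0.46 without female LKO replicate 4 and 0.51 under limma-voom with sample quality weights.

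Krt19, a type I keratin of bile duct cells that other simple epithelia and mesothelium also make, lies on chromosome 11 at 100031636 to 100036752 (GRCm39, minus strand). Male CRE- controls had 0.791, 0.624, 0.676 and 0.764 CPM, and male LKO mice had 1.65, 0.916, 1.37 and 0.702 CPM. In females the levels were 3.02, 1.81, 2.01 and 2.19 CPM in CRE- controls and 1.61, 1.92, 2.05 and 0.926 CPM in LKO mice. Male LKO replicates 1, 2 and 3 were above each of the 4 male controls and replicate 4 lay among them, whereas in females 2 of 4 LKO values lay below each control and the other 2 lay inside the control range. The male log2 fold change was 0.69 (with an SE of 0.34, unadjusted p = 0.0590 and adjusted p = 0.547 by edgeR's quasi-likelihood test with BH adjustment). The female log2 fold change was -0.47 (with an SE of 0.33 and adjusted p = 0.455 by the same edgeR test). Neither passed the threshold. In fits that left out 1 mouse the male value was between 0.46 (without male LKO replicate 1) and 0.86 (without male LKO replicate 4), and the female value between -0.61 (leaving out female LKO replicate 3) and -0.27 (leaving out replicate 4 of that group), with -0.30 without female CRE- replicate 1. Under limma-voom with sample quality weights they were 0.40 and -0.20. The difference between the sexes, taken as the female minus the male log2 fold change, was -1.16 (with an SE of 0.48), with unadjusted p = 0.0266 and adjusted p = 0.266 by edgeR's quasi-likelihood test with BH adjustment. Under limma-voom with sample quality weights that difference was -0.60.

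Epcam, the membrane adhesion protein of biliary epithelium, lies on chromosome 17 at 87943407 to 87958555 (GRCm39, plus strand). It was at 1.36, 1.69, 1.25 and 2.88 CPM in male CRE- controls and at 4.37, 1.58, 2.14 and 2.54 CPM in male LKO mice. Female CRE- controls had 4.04, 2.96, 1.92 and 3.74 CPM, and female LKO mice had 3.27, 6.78, 3.51 and 1.33 CPM. In females the lowest and the highest of the 8 values were both LKO mice. The mean in female LKO mice was 3.72 ± 2.26 CPM (SD, n = 4), and the SD was 60.7% of that mean. For Epcam the log2 fold change was 0.56 (with an SE of 0.44) in males and 0.24 (with an SE of 0.44) in females, with adjusted p = 0.725 and 0.810 by edgeR's quasi-likelihood test with BH adjustment. The male value was 0.20 without male LKO replicate 1, which had the highest male level, 0.89 without male CRE- replicate 4, the highest control, and 0.34 under limma-voom with sample quality weights. The female value was -0.22 without female LKO replicate 2 and 0.51 without replicate 4 of that group. It was 0.057 without female CRE- replicate 3, 0.37 without female CRE- replicate 1 and 0.40 under limma-voom with sample quality weights.

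Prom1, the prominin gene, lies on chromosome 5 at 44150963 to 44260850 (GRCm39, minus strand), where Gm16401 overlaps it on the other strand, and the authors counted reads by strand. Male CRE- controls had 0.629, 0.936, 2.13 and 0.449 CPM, and male LKO mice had 4.58, 0.916, 2.88 and 1.08 CPM. Female CRE- controls had 35.8, 27.2, 22.1 and 42.7 CPM, and female LKO mice had 26.3, 26, 9.93 and 41.7 CPM. Male LKO replicates 1 and 3 were above each male control, and replicates 2 and 4 lay inside the control range. In females the groups overlapped over most of their range, with 1 LKO mouse below each control. The male log2 fold change was 1.20 (with an SE of 0.55), with unadjusted p = 0.0456 and adjusted p = 0.509 by edgeR's quasi-likelihood test with BH adjustment. It was between 0.65 and 1.80 in fits that each left out 1 mouse, the lowest without male LKO replicate 1 and the highest without male CRE- replicate 3. The female log2 fold change was -0.30 (with an SE of 0.51 and adjusted p = 0.789 by the same edgeR test). Leaving out female LKO replicate 3 gave -0.030, leaving out replicate 4 of that group gave -0.63, leaving out female CRE- replicate 4 gave -0.11, and limma-voom with sample quality weights gave -0.74. For the difference between the sexes, the female minus the male log2 fold change was -1.50 (with an SE of 0.75), with an unadjusted p = 0.0626 and adjusted p = 0.332 by that edgeR test. Leaving out male LKO replicate 1 gave -0.95, and leaving out male CRE- replicate 3 gave -2.10.

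Sox9, the transcription factor of the ductal plate and of mature ducts, lies on chromosome 11 at 112673036 to 112678583 (GRCm39, plus strand). Its level was 5.84, 3.34, 7.96 and 9.03 CPM in male CRE- controls and 3.83, 4.08, 18.3 and 4.13 CPM in male LKO mice. Female CRE- controls had 10.9, 4.44, 3.30 and 4.86 CPM, and female LKO mice had 10.4, 5.24, 3.37 and 8.88 CPM. Male LKO replicate 3 had the highest Sox9 level of the 16 livers, and the other 3 male LKO mice lay within 3.83 to 4.13 CPM, below 3 of 4 male controls. The female groups covered nearly the same range, 3.30 to 10.9 CPM in controls and 3.37 to 10.4 CPM in LKO mice. For Sox9 the log2 fold change was 0.22 (with an SE of 0.53) in males and 0.24 (with an SE of 0.53) in females, with adjusted p = 0.924 and 0.845 by edgeR's quasi-likelihood test with BH adjustment. Without male LKO replicate 3 the male value was -0.70 (adjusted p = 0.723 in edgeR's test), and it was -0.0018 without male CRE- replicate 2 and -0.022 without the 2 acinar libraries. Without male CRE- replicate 4 or male LKO replicate 1, 2 or 4 it was between 0.41 and 0.42. The female value was -0.0071 without female LKO replicate 1, 0.73 without female CRE- replicate 1 and 0.47 without female LKO replicate 3. It was 0.13, 0.047 and 0.094 without female CRE- replicate 2, female CRE- replicate 3 and female LKO replicate 4, and 0.14 without the 2 acinar libraries. Under limma-voom with sample quality weights it was -0.13 in males and -0.071 in females.

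Cftr, the chloride channel through which secretin-stimulated duct cells begin fluid secretion, lies on chromosome 6 at 18170686 to 18322769 (GRCm39, plus strand). It had 12, 2, 0 and 0 reads in male CRE- controls and 10, 8, 6 and 2 reads in male LKO mice. Female CRE- controls had 31, 6, 12 and 4 reads, and female LKO mice had 14, 4, 10 and 4 reads. The ranges of LKO and control mice overlapped in each sex, and female CRE- replicate 1 was highest. The 2 male controls at 0 allow levels of up to 0.156 and 0.135 CPM (3 pairs with both reads counted, which is 6 counts of the scaled library, counting error alone), close to the mean of 0.157 ± 0.0833 CPM in male LKO mice (SD, n = 4). The log2 fold change was 1.04 (with an SE of 0.98) in males and -0.67 (with an SE of 0.91) in females, with adjusted p = 0.772 and 0.729 by edgeR's quasi-likelihood test with BH adjustment. The male value was 3.12 without male CRE- replicate 1, 0.65 without replicate 3 or without replicate 4 of that group and 0.69 without male LKO replicate 1. With replicate number as a block the male value was 1.58. The female value was 0.14 without female CRE- replicate 1, -1.13 without female LKO replicate 1 and -0.43 under limma-voom with sample quality weights.

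**Figure D2:**
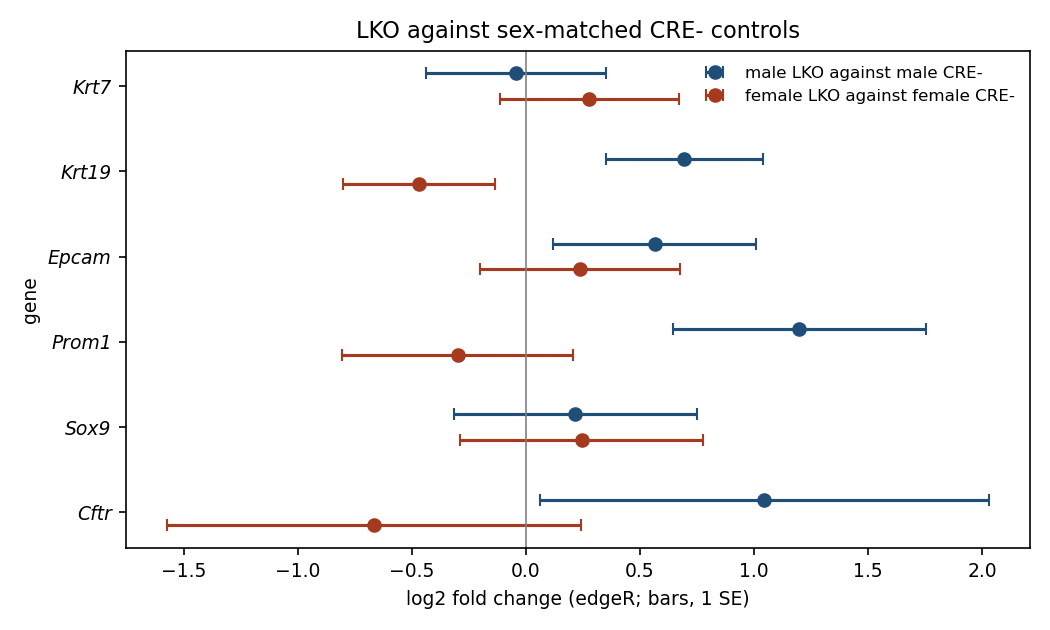
Log2 fold change of each of the 6 genes in LKO mice against sex-matched CRE- controls on a linear axis of log2 units, from edgeR. Points are the fitted values, blue for males and red for females, and bars are 1 SE. The Prom1 value is 1.20 in males and -0.30 in females, the Krt19 value is 0.69 in males and -0.47 in females, and none of the 12 values passed the threshold.

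The sexes were also compared within each genotype. Between female and male CRE- controls 2 of 6 members were DEGs, Krt19 and Prom1, against 0.92% of genes tested. DESeq2 called 2 of 6 there and 506 of all genes. Krt19 and Prom1 were also the 2 members whose control groups did not overlap, which held for 7.54% of genes tested. Prom1 was at 32 ± 9.13 CPM in female and 1.04 ± 0.757 CPM in male CRE- controls (SD, n = 4), and each of the 4 females was above each of the 4 males. Its log2 fold change was 4.96 (with an SE of 0.61 and adjusted p = 0.000319 by edgeR's quasi-likelihood test with BH adjustment), a ratio of 31.1. The Prom1 call was kept in each of the 16 fits that left out 1 mouse, with log2 fold changes between 4.71 and 5.56, the highest without male CRE- replicate 3. Krt19 was at 2.26 ± 0.529 CPM in female and 0.714 ± 0.0776 CPM in male CRE- controls (SD, n = 4), and its log2 fold change was 1.66 (with an SE of 0.35 and adjusted p = 0.0300 by edgeR's quasi-likelihood test with BH adjustment), higher in 4 of 4 females than in each male. The Krt19 call was kept only in fits with all 8 controls. The number of all genes called between controls also fell in some of the other fits. It was 154 with the 16 libraries, 68 without male CRE- replicate 1 and 90 without female CRE- replicate 3. Leaving out any 1 of the 8 took the adjusted p of Krt19 in edgeR's test to between 0.0562 and 0.0989, and the log2 fold change stayed between 1.49 and 1.75. The edgeR adjusted p was 0.0551 with no filter on low counts and 0.146 without the 2 acinar libraries. Krt7, Epcam, Sox9 and Cftr had log2 fold changes of 0.063, 0.82, -0.15 and 1.97 between the controls and were not DEGs. Those of Krt7 and Sox9 had no settled sign. By ratios of mean CPM, Krt7 was 0.061 on the log2 scale with TMM and -0.086 with raw totals. In fits that left out 1 mouse Krt7 was 0.33 without male CRE- replicate 3, -0.21 without male CRE- replicate 1 and -0.21 without female CRE- replicate 4, and Sox9 was 0.045 without male CRE- replicate 4 and 0.044 without female CRE- replicate 3. The lowest Sox9 value was -0.64 without female CRE- replicate 1, and limma-voom with sample quality weights gave 0.38 for Krt7 and -0.30 for Sox9. Cftr was 1.16 without female CRE- replicate 1 and 4.05 without male CRE- replicate 1. In female CRE- controls the 6 genes summed to 55.4, 37.5, 30.4 and 55.2 CPM. Prom1 alone held 35.8, 27.2, 22.1 and 42.7 CPM of these sums. Krt7 and Sox9 did not share the difference of Prom1 between the sexes, and the cells that the Prom1 reads came from were not tested.

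Between female and male LKO mice 1 of 6 members was a DEG, where 1.13% of genes tested were. DESeq2 called 1 of 6 there and 1057 of all genes. The member called was Prom1, which was also the 1 member whose groups did not overlap, which held for 8% of genes tested. Prom1 was at 26 ± 13 CPM in female and 2.36 ± 1.72 CPM in male LKO mice (SD, n = 4). The log2 fold change of Prom1 was 3.46 (with an SE of 0.57 and adjusted p = 0.00687 by edgeR's quasi-likelihood test with BH adjustment), and 4 of 4 females were above each male. Krt19 had 1.63 ± 0.502 CPM in female and 1.16 ± 0.427 CPM in male LKO mice (SD, n = 4), and its log2 fold change was 0.49 (with an SE of 0.34 and adjusted p = 0.483 by the same edgeR test). It was 0.32 without male LKO replicate 4 and 0.88 under limma-voom with sample quality weights. The difference between the sex contrast of LKO mice and that of controls is the interaction given for each gene. It called 0 of 6 members and 0% of genes tested by edgeR, with Krt19 at an unadjusted p under 0.05 and 0 members called by DESeq2. The female minus the male log2 fold change was 0.32 for Krt7, -0.33 for Epcam, 0.029 for Sox9 and -1.71 for Cftr, with adjusted p = 0.799, 0.821, 0.990 and 0.520 by edgeR's quasi-likelihood test with BH adjustment. That of Krt7 was 0.059 without male CRE- replicate 3, 0.60 without male CRE- replicate 1, 0.60 without female CRE- replicate 4, 0.52 without female LKO replicate 4, 0.19 without female CRE- replicate 3 or female LKO replicate 2 and 0.0095 under limma-voom with sample quality weights. For Cftr it was -3.79 without male CRE- replicate 1 and -0.91 without female CRE- replicate 1. That of Epcam was 0.038 without male LKO replicate 1, 0.064 under limma-voom with sample quality weights and -0.79 without female LKO replicate 2, and that of Sox9 was below 0 in 10 of the 16 fits that left out 1 mouse, from -0.22 without female LKO replicate 1 to 0.95 without male LKO replicate 3. Over all genes tested 2672 had an unadjusted p under 0.05 for the interaction, and DESeq2 called 371.

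Krt19 is also made by mesothelium, the cell layer of the liver surface, and a list of 6 mesothelial markers was read beside it. Its summed level was 7.65, 6.60, 6.70 and 4.17 CPM in female CRE- controls and 3.10, 5.06, 4.35 and 3.44 CPM in female LKO mice. Male CRE- controls had 3.31, 2.58, 7.41 and 3.42 CPM, and male LKO mice had 8.28, 3.0, 4.35 and 3.81 CPM. Male LKO replicate 1, which had the highest Krt19, Epcam and Prom1 of its group, also had the highest mesothelial sum of the 16 livers. Gpm6a, the most abundant gene of the list, had 1.77, 1.67, 2.06 and 1.28 CPM in female CRE- controls. Male CRE- controls had 1.14, 1.34, 3.43 and 1.66 CPM of Gpm6a, so these groups overlapped. Upk3b had 1.91, 1.54, 2.25 and 0.989 CPM in female CRE- controls against 0.365, 0.267, 0.988 and 0.135 CPM in male CRE- controls. Of the 6 markers 6 were tested and 0 were DEGs by edgeR or DESeq2 in males, in females or between controls, with 0, 2 and 2 at an unadjusted p under 0.05. Of the 16742 genes tested edgeR called 76, 710 and 154 in these comparisons, and 1595, 3584 and 2121 had an unadjusted p under 0.05. Their log2 fold changes were above 0 in 5 of 6 cases in males (median 0.35), 0 of 6 in females (median -0.72), 4 of 6 between controls (median 1.40), 3 of 6 between LKO groups (median -0.029) and 0 of 6 for the sex difference (median -1.30). Msln had no read in female LKO replicate 1, and Upk1b had none in male CRE- replicates 3 and 4. The part of mesothelium in the Krt19 levels was not tested.

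Krt8 and Krt18, the keratin pair that hepatocytes share with duct cells, were far more abundant. Per length, Krt8 was at 173 ± 19 and Krt18 at 152 ± 35.5 CPM per kilobase in male CRE- controls (SD, n = 4), against 0.504 for Krt19. Over all genes tested edgeR called 0.454% in males and 4.24% in females, and 1595 and 3584 of 16742 had an unadjusted p under 0.05. Of Krt8 and Krt18, 0 were DEGs by edgeR or DESeq2 in males or females, with 0 at an unadjusted p under 0.05. Their sum was 412 to 1402 CPM in female LKO mice, with the highest value in replicate 4, and 396 to 655 CPM in female CRE- controls. The keratins Krt7 and Krt19 of that same liver were the lowest of the female LKO group.

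The list of 18 other genes of bile duct epithelium held 18 tested genes, of which 0 were DEGs in males and 1 in females by edgeR, against 1 and 2 by DESeq2. Over all genes tested edgeR called 0.454% in males and 4.24% in females, and DESeq2 called 339 and 1809 genes. At an unadjusted p under 0.05 there were 2 in males and 6 in females, where 1595 and 3584 of the 16742 genes tested were. The median log2 fold change was 0.35 in males and 0.51 in females, and 14 and 13 of 18 were above 0, where 8217 and 8891 of the 16742 genes tested were. Tspan8, a tetraspanin of epithelial membranes, was at 2.75, 2.10, 1.82 and 1.39 CPM in female CRE- controls and at 3.78, 10.1, 4.13 and 33.0 CPM in female LKO mice. Each LKO female was above each control, and replicate 4 was more than 3 times as high as any of the other 7. The log2 fold change of Tspan8 was 2.66 (with an SE of 0.65 and adjusted p = 0.0340 by edgeR's quasi-likelihood test with BH adjustment) and was 1.57 without female LKO replicate 4 and 1.72 under limma-voom with sample quality weights. The call was lost without that mouse or without any 1 of female CRE- replicates 1, 2, 3 and 4 (adjusted p between 0.0541 and 0.104 in edgeR's test). The difference between the sexes was 1.56 (adjusted p = 0.376 in the same edgeR test). It includes female LKO replicate 4, without which the female value fell from 2.66 to 1.57. Cldn3, a tight junction claudin and the most abundant gene of this list in each group except female LKO mice, where Spp1 averaged 87.3 CPM, was at 109 CPM in female CRE- controls and 67.8 CPM in female LKO mice on average, with a log2 fold change of -0.68 (with an SE of 0.23 and adjusted p = 0.0904 by edgeR's quasi-likelihood test with BH adjustment). Spp1, which encodes osteopontin, had log2 fold changes of 0.44 in males and 0.50 in females and was not called. Both values depend on the highest control, at 87.2 CPM against a group mean of 52.3 in males and 98.0 against 61.7 in females.

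Of 10 genes of bile duct secretion 8 were tested, and edgeR called 0 in males and 1 in females, against 0 and 2 by DESeq2. Over all genes tested edgeR called 0.454% and 4.24%, and DESeq2 called 339 and 1809 of 16742. An unadjusted p under 0.05 was found for 2 in males and 2 in females, where 1595 and 3584 of the 16742 tested had one. The medians were 0.060 in males and 0.17 in females on the log2 scale. Slc5a1, a sodium and glucose cotransporter of the apical membrane, was at 4.92, 2.55, 2.01 and 3.53 CPM in female CRE- controls and at 10.6, 11.5, 8.19 and 9.05 CPM in female LKO mice. The female groups did not overlap. The log2 fold change of Slc5a1 was 1.60 (with an SE of 0.32 and adjusted p = 0.0173 by edgeR's quasi-likelihood test with BH adjustment). The call was lost without female CRE- replicate 2, 3 or 4 (adjusted p between 0.0523 and 0.0733 in edgeR's test), and the difference between the sexes was 1.28 (adjusted p = 0.218 in the same edgeR test). Slc10a2, the sodium-dependent bile acid transporter of the apical membrane, was at 38.0, 56.3, 43.6 and 39.1 CPM in male CRE- controls and at 0.926, 13.1, 12 and 8.54 CPM in male LKO mice, with no overlap. Its male log2 fold change was -2.36 (with an SE of 0.80, unadjusted p = 0.00912 and adjusted p = 0.310 by edgeR's quasi-likelihood test with BH adjustment), so it was not called, and DESeq2 gave no adjusted p for it. In females Slc10a2 was at 25.7 to 77.1 CPM in CRE- controls and at 6.04, 7.53, 2.93 and 56.1 CPM in LKO mice, with a log2 fold change of -1.19 (with an SE of 0.77 and adjusted p = 0.404 by the same edgeR test). Female LKO replicate 4 lay inside the control range, and the other LKO females, at 2.93 to 7.53 CPM, lay below each control. The size of the female value therefore depends on that replicate. Aqp1, a water channel of duct cells and endothelium, was the most abundant of these genes, with log2 fold changes of 0.79 in males and -0.38 in females (adjusted p = 0.368 and 0.506 by edgeR's quasi-likelihood test with BH adjustment). The genes not tested were Sctr, the secretin receptor, and Gpbar1, a bile acid receptor, for too few counts.

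Notch and YAP signals govern the choice between hepatocyte and duct cell in development, and Sox9 lies downstream of both. Of 18 genes of these pathways 18 were tested, and 0 were DEGs in males and 2 in females by edgeR, with 0 and 2 by DESeq2. Over all genes tested edgeR called 0.454% and 4.24%, and DESeq2 called 339 and 1809 of 16742. Of the 18, 2 in males and 3 in females had an unadjusted p under 0.05, where 1595 and 3584 of 16742 did. The median log2 fold change was -0.35 in males and 0.26 in females. Heyl, a transcriptional repressor induced by Notch, was at 2.62, 3.04, 3.83 and 5.29 CPM in female CRE- controls and at 2.11, 1.60, 1.06 and 0.926 CPM in female LKO mice. Ccn2, a matricellular protein and YAP target, was at 7.21, 5.33, 6.34 and 7.16 CPM in female CRE- controls and at 34.2, 12.6, 12.8 and 29.0 CPM in female LKO mice. Neither gene overlapped between the female groups, Heyl being lower and Ccn2 higher in LKO mice. Their log2 fold changes were -1.37 (with an SE of 0.34) and 1.77 (with an SE of 0.46), with adjusted p = 0.0354 and 0.0414 by edgeR's quasi-likelihood test with BH adjustment. The Heyl call was lost without female CRE- replicate 2, 3 or 4 or female LKO replicate 3 or 4 (adjusted p between 0.0685 and 0.0919 in edgeR's test). The Ccn2 call was lost without any 1 of the 4 female controls, female LKO replicate 1 or 4, male CRE- replicate 1 or 4 or male LKO replicate 4 (adjusted p between 0.0509 and 0.136 in edgeR's test). The difference of Heyl between the sexes was -0.72 (adjusted p = 0.439 in edgeR's test). In males Ccn2 had a log2 fold change of -0.79, and the difference between the sexes was 2.56 (adjusted p = 0.146 by edgeR's quasi-likelihood test with BH adjustment and 0.00754 by DESeq2). Both values depend on male LKO replicate 1, which was at 19.1 CPM against a mean of 8.65 CPM in its group. Yap1 was the most abundant gene of the list, with log2 fold changes of -0.17 in males and -0.19 in females, neither called.

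Of 16 genes of the ductular reaction and of liver progenitors 13 were tested, and edgeR called 1 in males and 2 in females, against 1 and 4 by DESeq2, where edgeR called 0.454% and 4.24% of all genes tested and DESeq2 339 and 1809 of 16742. At an unadjusted p under 0.05 there were 2 in males and 6 in females, where 1595 and 3584 of the 16742 tested were. The median log2 fold change of the list was 0.067 in males and 1.04 in females, and 7 and 11 of 13 were above 0, where 8217 and 8891 of the 16742 genes tested were. Vtcn1, a B7-family membrane protein made by some biliary epithelia, was at 0.325, 0.0446, 0 and 0.405 CPM in male CRE- controls and at 6.64, 2.67, 4.75 and 3.0 CPM in male LKO mice. These rest on 0 to 18 reads in controls and 111 to 258 reads in LKO mice, and each male LKO mouse was above each control. The male log2 fold change of Vtcn1 was 4.42 (with an SE of 0.81 and adjusted p = 0.0235 by edgeR's quasi-likelihood test with BH adjustment). The call was lost without male CRE- replicate 1, 2 or 3 or male LKO replicate 1 or 3 (adjusted p between 0.0515 and 0.0759 in edgeR's test), and the log2 fold change was 5.02 without male CRE- replicate 4. Under limma-voom with sample quality weights it was 4.26, and the call was lost (limma adjusted p = 0.0589). With replicate number as a block it was 4.29, and the call was also lost (edgeR adjusted p = 0.0538). In females Vtcn1 was at 0.976, 1.21, 1.46 and 0.321 CPM in CRE- controls and at 2.42, 6.23, 3.6 and 0.955 CPM in LKO mice, with a log2 fold change of 1.73 (with an SE of 0.70 and adjusted p = 0.160 by edgeR's quasi-likelihood test with BH adjustment). Female LKO replicate 4 lay inside the control range and the other 3 above it. The female minus the male value was -2.68 (adjusted p = 0.242 in edgeR's test).

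Tnfrsf12a, the receptor for the cytokine TWEAK that acts on liver progenitor cells, was at 6.12, 6.38, 6.44 and 7.06 CPM in female CRE- controls and at 15, 18.6, 9.66 and 68.1 CPM in female LKO mice. Each LKO female was above each control. The log2 fold change of Tnfrsf12a was 2.10 (with an SE of 0.45 and adjusted p = 0.0225 by edgeR's quasi-likelihood test with BH adjustment) and 1.15 without female LKO replicate 4 and 1.27 under limma-voom with sample quality weights. The call was lost without female CRE- replicate 2, 3 or 4 (adjusted p between 0.0641 and 0.0816 in edgeR's test). The difference between the sexes was 1.25 (adjusted p = 0.328 in the same edgeR test). That difference includes female LKO replicate 4, without which the female value fell from 2.10 to 1.15. Afp, a fetal liver protein, was at 0.177, 0.273, 0.287 and 0.802 CPM in female CRE- controls and at 3.07, 0.598, 0.732 and 7.95 CPM in female LKO mice, and the groups overlapped. Its log2 fold change was 3.01 (with an SE of 0.76 and adjusted p = 0.0395 by edgeR's quasi-likelihood test with BH adjustment) and was 1.92 without female LKO replicate 4 and 3.65 without female CRE- replicate 4. The Afp call was lost without any 1 of the 4 female controls, female LKO replicate 1 or 4, male CRE- replicate 1 or male LKO replicate 2 or 4 (adjusted p between 0.0532 and 0.133 in edgeR's test). The difference of Afp between the sexes was 2.53 (adjusted p = 0.265 in the same edgeR test). It includes female LKO replicate 4, without which the female value fell from 3.01 to 1.92. Lcn2 had the highest mean of this list in each group except male LKO mice, where Cd44 averaged 19.6 and Lcn2 13 CPM, and its mean in female LKO mice rests on replicate 4. Without the 2 acinar libraries, which leaves 3 controls in each sex, the edgeR adjusted p of Tspan8, Slc5a1, Heyl, Ccn2, Tnfrsf12a, Afp and Vtcn1 lay between 0.0831 and 0.143. With each sex fitted alone, the calls of Tspan8, Heyl, Ccn2, Tnfrsf12a and Afp were lost (edgeR adjusted p between 0.0501 and 0.110), and under limma-voom with sample quality weights Afp was at 1.83 on the log2 scale (limma adjusted p = 0.0570). Without the acinar libraries 27 genes were called in males and 55 in females, against 76 and 710 with the 16 libraries.

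**Figure D3:**
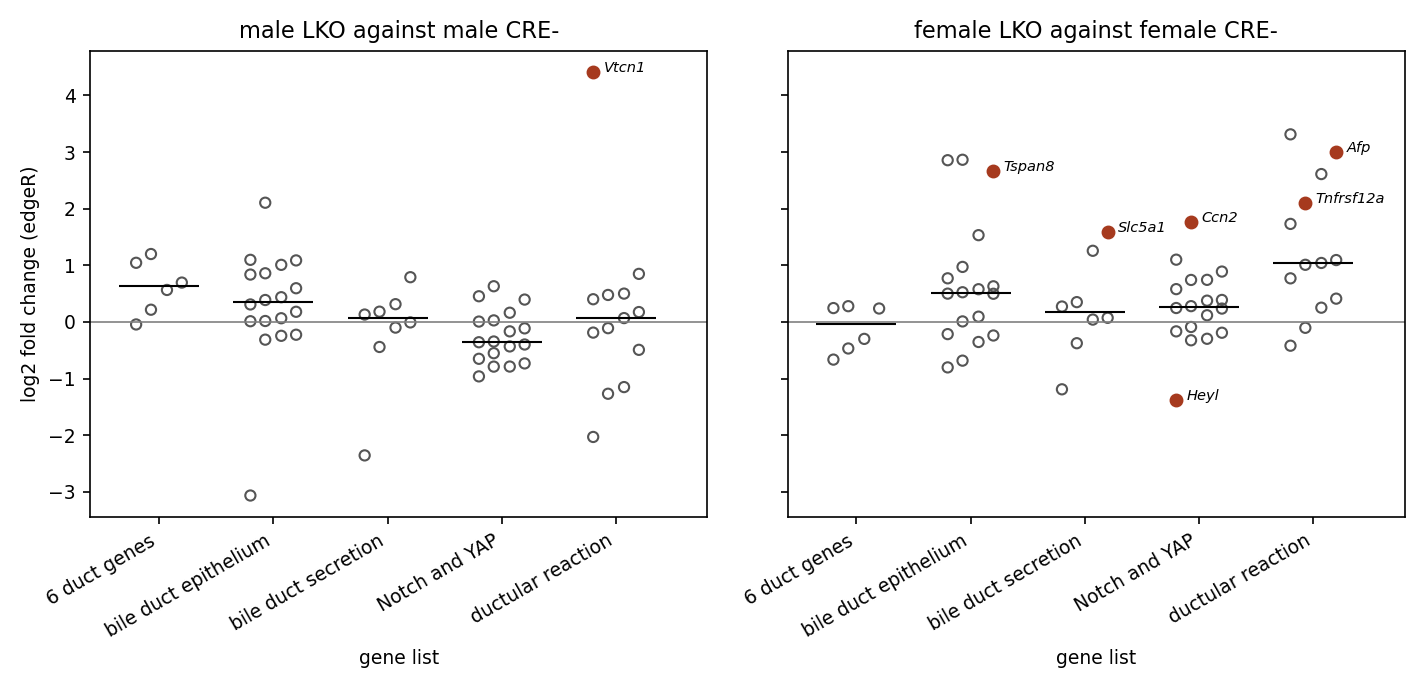
Log2 fold change of each tested gene of the 6 duct genes and of the other lists of bile duct genes in LKO mice against sex-matched CRE- controls, males on the left and females on the right, from edgeR. Filled red points are DEGs at an adjusted p under 0.05, open points are other genes, and the horizontal line is the median of a list. Vtcn1 is at 4.42 in males, and 6 genes are called in females, of which Heyl is the 1 below 0.

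Markers of other liver cells were read in the same libraries. Alb, the defining hepatocyte transcript, was between 41687 and 105504 CPM in the 16 livers. Hepatocyte markers summed to 107363 to 128097 CPM in female CRE- controls and 48477 to 88003 CPM in female LKO mice, with Alb the most abundant, and 0 of 8 were called in either sex by edgeR, with 2 and 4 at an unadjusted p under 0.05 and 0 and 2 by DESeq2. Macrophage markers summed to 2178, 495, 1262 and 651 CPM in female LKO mice against 365 to 619 CPM in female CRE- controls, with Clec4f the most abundant and Adgre1 called (1 of 6, log2 fold change 2.15). Neutrophil markers summed to 89.3, 29.6, 52.2 and 517 CPM against 11.6 to 26.3 CPM, with S100a9 the most abundant and Retnlg and Mpo called (2 of 4 tested, 2.86 and 5.23 on the log2 scale). Proliferation genes summed to 80.8, 15.6, 32.4 and 34.0 CPM against 5.08 to 18 CPM, with Mki67 the most abundant and Top2a, Ccnb1, Cdk1, Birc5 and Aurkb called (5 of 6). In females 6 of 6 macrophage, 4 of 4 neutrophil and 6 of 6 proliferation genes had an unadjusted p under 0.05, and DESeq2 called 5, 4 and 6. Of all 16742 genes tested, 3584 in females and 1595 in males had an unadjusted p under 0.05. There edgeR called 4.24% of all genes in females and 0.454% in males, and DESeq2 called 1809 and 339. In males edgeR called 0 of the 6 macrophage, 4 neutrophil and 6 proliferation genes tested, with 0, 4 and 0 at an unadjusted p under 0.05 and 0, 1 and 0 by DESeq2. Of the 4 neutrophil genes 0 had a male log2 fold change above 0 (median -2.23, from -4.65 to -1.52), and their sum was 59, 13.5, 7.62 and 127 CPM in male CRE- controls against 17, 10.1, 7.70 and 7.13 CPM in male LKO mice. Cdh5 was called in females among 6 endothelial markers (log2 fold change 0.79, with 3 at an unadjusted p under 0.05 and 1 called by DESeq2), of which Stab2 was the most abundant in male CRE- and female LKO mice and Clec4g in the other 2 groups, and 0 were called in males by edgeR or DESeq2, with 0 at an unadjusted p under 0.05. These 9 female calls were each kept in 5 to 12 of the 16 fits that left out 1 mouse, and each was lost without the 2 acinar libraries (edgeR adjusted p between 0.0831 and 0.143) and with each sex fitted alone (0.0634 to 0.0862). Mpo was also lost under limma-voom with sample quality weights (limma adjusted p = 0.0884, at 4.05 on the log2 scale), Aurkb with upper-quartile normalization (edgeR adjusted p = 0.0543) and with no filter on low counts (0.0572), and Adgre1 with upper-quartile normalization (0.0518). On the log2 scale Adgre1 was 1.21 without female LKO replicate 1, Retnlg 2.04 without female LKO replicate 4, and Mpo 4.2 without female LKO replicate 4 and 6.61 without female CRE- replicate 1. Top2a was 1.76 without female LKO replicate 1 and 3.04 without female CRE- replicate 4. For the difference between the sexes edgeR called 0 macrophage, neutrophil, proliferation and endothelial genes, with 2, 4, 5 and 3 at an unadjusted p under 0.05 and 0, 4, 1 and 0 by DESeq2, and over all genes 0 were called by edgeR and 371 by DESeq2, with 2672 at an unadjusted p under 0.05.

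Among 8 stellate cell and fibroblast markers, with Dcn the most abundant, and 6 lymphocyte markers, with Jchain the most abundant, edgeR and DESeq2 called 0 in each sex. The stellate list had 1 gene at an unadjusted p under 0.05 in males and 0 in females, and the lymphocyte list had 0 in both. Over all genes tested edgeR called 0.454% in males and 4.24% in females, and 1595 and 3584 of 16742 had an unadjusted p under 0.05. The list of 6 gallbladder and gut genes had 3 tested and 0 called by edgeR in each sex, with 2 at an unadjusted p under 0.05 in females and 0 in males and with 1 and 0 by DESeq2. Lgals4 was its most abundant gene, and Muc5b had no read in any group. Of 8 pancreatic markers Cela1 was the 1 that was tested and had the highest mean in each group except female CRE- controls, where Ctrb1 averaged 37.8 CPM and Cela1 35.9. Cela1 was not called in either sex by edgeR or DESeq2, with unadjusted p = 0.0268 in females and 0.653 in males from edgeR. Of 6 kidney tubule markers 0 passed the filter, with a sum of at most 0.412 CPM in any liver, Cdh16 with the highest mean in males and Slc12a3 in females, and Slc12a1 and Aqp2 without a read. The part of these cell types in the levels of the duct genes was not tested.

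The 15 pairs among the 6 genes were compared over the 16 mice on log2 CPM. Because Prom1 separates the sexes in both genotypes and Krt19 separates them among controls, relations that involve them were computed on deviations from the group means, with permutation within groups. Krt19 and Epcam had r = 0.656 (permutation p = 0.0310, adjusted over 15 pairs 0.299) and rho = 0.615 (permutation p = 0.0328, adjusted 0.429) on deviations, and r = 0.610 without the 2 mice farthest from the median of Krt19. Krt7 and Epcam had r = 0.479 on deviations (permutation p = 0.0874, adjusted 0.356), rho = 0.462 (permutation p = 0.0972, adjusted 0.429) and r = 0.271 without the 2 farthest mice. Over the 16 mice without regard to group they had r = 0.523 (permutation p = 0.0351, adjusted 0.132) and rho = 0.424 (permutation p = 0.105, adjusted 0.315). That r fell to 0.263 without the 2 mice farthest from the median of Krt7, so that the relation rests on those mice. Krt19 and Cftr had r = 0.470 on deviations (permutation p = 0.0399, adjusted 0.299), rho = 0.455 (permutation p = 0.0904, adjusted 0.429) and r = 0.390 without the 2 farthest mice. Krt7 and Cftr had r = -0.556 on deviations (permutation p = 0.0948, adjusted 0.356), rho = -0.428 (permutation p = 0.143, adjusted 0.429) and r = -0.471 without the 2 farthest mice, and r = -0.300 over the 16 mice without regard to group (permutation p = 0.256, adjusted 0.511). Sox9 had r between -0.0904 and 0.376 with the other 5 genes on deviations. For deviations from group means 0 of 15 pairs passed an adjusted p of 0.05.

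For each member the genes with the most similar level over the 16 mice were taken by Pearson's r of log2 CPM among 13079 genes with a mean of at least 1 CPM, as a description without a test. For Krt7 they were Erbb2 (r = 0.852), Morc4 (0.850) and Tmco4 (0.740). For Epcam they were Scara3 (0.876), Gdf10 (0.840) and Gimap1 (0.806), and for Sox9 they were Kifc3 (0.814), Crtc3 (0.811) and Tnk2 (0.780). Cftr was nearest to Casp2 (0.795), Hnrnpm (0.770) and Zfp820 (0.743), from few reads. For Krt19 and Prom1 the nearest genes were ones that differ between the sexes, so r on deviations from the group means is given. Krt19 was nearest to Cyp2a4 (0.681 on deviations), Tmem167-ps1 (0.664) and Sult2a3 (0.590). Prom1 was nearest to Cyp3a16 (0.455 on deviations), Cyp3a41a (0.545) and Cyp2c69 (0.248). Cyp3a41a averaged 830.2 CPM in female CRE- controls, 125 CPM in female LKO mice and 0.522 CPM in male CRE- controls, whereas Prom1 averaged 32, 26 and 1.04 CPM in these groups.

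RefSeq promoter windows (GRCm38.p6) matched 4 of 6 members, namely Krt7, Epcam, Cftr and Prom1, with 5 windows because Prom1 has 2. The 250 bases before each start were searched on both strands for TTCNNNGAA (bound by STAT factors), ATCGAT (a core bound by CUX2 and by HNF6, the product of Onecut1), the palindromic motif of HNF1 and TGGGAA (the core bound by RBPJ, the DNA-binding partner of Notch). The motifs were present in 7.02%, 0.728%, 0.00913% and 21.6% of 32851 windows of the same length. The RBPJ core was found in 1 of the 5 windows, that of Prom1 with 1 match 116 bases before its end, and the other 3 motifs in 0 of the 5. The sequence of that window is shown because Prom1 had the largest difference of the 6 genes between the sexes. It lies at chr5:44101737-44101986 on the minus strand of GRCm38.p6 and is written 5′ to 3′, with the reverse complement of the motif in capitals.
Prom1: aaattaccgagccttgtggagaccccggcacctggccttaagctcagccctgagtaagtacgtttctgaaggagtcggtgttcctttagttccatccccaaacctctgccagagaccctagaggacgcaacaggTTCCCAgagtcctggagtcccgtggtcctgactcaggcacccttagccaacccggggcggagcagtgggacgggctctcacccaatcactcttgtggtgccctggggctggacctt
A match is a description of letters and not of binding.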

How the data were processed

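The authors deposited the read count per gene and library, with each gene's symbol, position, strand and length. The submitters' processing notes name STAR 2.7.1a, Subread 2.0.6, which holds featureCounts, and GRCm39. Of the counts from 1 to 200, 79.8% were even, so both reads of most pairs were counted and counting error is larger than the reads imply. Limits from counts of 0 take 3 pairs and cover counting error only. Genes were filtered by filterByExpr (minimum count 10), normalized by TMM and fitted as 4 groups with edgeR 4.0.16 in R 4.3.3 (quasi-likelihood test, BH adjustment, no minimum fold change). Log2 CPM used a prior count of 2. DESeq2 1.42.0 and limma 3.58.1 gave alternatives. Permutation tests were two-sided with 100000 resamples. The named genes are the 6 members and Gcgr, the called and the most abundant gene of each list (bile duct identity, secretion, Notch and YAP, ductular reaction, simple keratins, hepatocyte, mesothelium, pancreas, kidney tubule, gallbladder and gut, endothelium, stellate cell and fibroblast, macrophage, neutrophil, lymphocyte, proliferation), and the 3 genes most like each member. Other genes were named after their values were seen. The members and lists were chosen with earlier results of these data known.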

Additional observations from a re-analysis of the deposited data

Results flagged for a closer look

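In groups of 4 mice, the highest or lowest level was compared with its nearest neighbour, and a gap over the group's range above Dixon's 95% limit was marked. Of 92 groups examined, from 23 genes, 7 were marked, and chance marks about 1 in 20 groups. Sox9 was at 18.3 CPM in male LKO replicate 3, above the 3.83 to 4.13 CPM of the other mice of its group. Gcgr was at 127 CPM in male CRE- replicate 3, below the rest of that group. Ccn2 was at 19.1 CPM in male LKO replicate 1, above the rest of its group. Tnfrsf12a was at 68.1 CPM in female LKO replicate 4, the highest of the 16 livers. Adgre1, a macrophage receptor, was at 62.3 CPM in male LKO replicate 1. Mpo, a neutrophil granule enzyme, was at 1.15 CPM in female CRE- replicate 1, and Cdk1, a cell cycle kinase, was at 2.78 CPM in female CRE- replicate 4, each the highest of its group.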

How the results depend on the processing

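With each alternative that was run, 0 of the 6 genes were called by LKO against CRE- in males, in females or for the sex difference. Of 1390 other values of single genes and relations, 1164 kept their direction and their side of the threshold, 193 kept their direction and lost the threshold, and 33, in 4 genes that were not called, turned in direction. DESeq2 called 339 genes in males, 1809 in females, 371 for the sex difference, 506 between controls and 1057 between LKO groups. Without a filter on low counts the sex difference had 12 calls and the controls 1 of the 6 genes. With at least 10 counts in every library the controls had 78 and the LKO groups 102. With each sex fitted alone females had 119. With a replicate block females had 1244 and the LKO groups 514. The correlation of deviations was highest with the own number in 4 of 8 cases, where 2 would be by chance, and r with the own number was between -0.013 and 0.173, so that not every mouse correlates best with its own number. The Vtcn1 call in males was lost under the block, at 4.29 on the log2 scale (edgeR adjusted p = 0.0538). With limma-voom sample weights the calls were 148 in males, 1976 in females, 29 for the sex difference, 329 between controls and 953 between LKO groups, and the log2 fold changes were 0.50 for Krt7 in males, -0.13 and -0.071 for Sox9 in males and females, and 0.064 for the sex difference of Epcam. At an adjusted p under 0.01 there were 22 in males, 51 in females, 54 between controls with 1 of the 6 genes, and 41 between LKO groups. Chosen after seeing the data, leaving out the 2 acinar libraries gave 27 in males, 55 in females, 67 between controls with 1 of the 6 genes, 106 between LKO groups and -0.022 for Sox9 in males, and halving the counts moved no count by more than 1.5 times. Leaving out 1 mouse at a time gave 26 to 111 calls in males, 87 to 1310 in females, 0 to 14 for the sex difference, 68 to 213 between controls with 1 to 2 of the 6 genes, and 49 to 684 between LKO groups. Log2 fold changes then ranged from -0.32 to 0.22 for Krt7 in males and -0.21 to 0.33 between controls. For Sox9 they ranged from -0.70 to 0.42 in males, -0.0071 to 0.73 in females, -0.22 to 0.95 for the sex difference, -0.64 to 0.045 between controls and -0.38 to 0.79 between LKO groups. Epcam ranged from -0.22 to 0.51 in females and -0.79 to 0.038 for the sex difference, and Cftr from -1.13 to 0.14 in females and -0.21 to 0.59 between LKO groups. The r of Sox9 with Cftr was 0.0494 with a prior count of 2 and -0.0327 with 0.5. Cftr, with too few reads, could not be tested with at least 10 counts in every library, with each sex fitted alone or with the counts halved. The cause was not tested.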

Other observations

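Elf3, an epithelial transcription factor, was at 2.27, 0.648, 1.01 and 38.8 CPM in female LKO mice and at 2.99, 0.584, 0.383 and 1.92 CPM in female CRE- controls, so that replicate 4 of the LKO group stood above the other 7. Lcn2, a secreted lipocalin, was at 202, 114, 83.5 and 4025 CPM in female LKO mice and at 307, 18.4, 16.2 and 104 CPM in female CRE- controls. Both genes were named after their values were seen.

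Cftr rests on at most 31 reads in any mouse. Each group holds 4 mice. Neither the number of duct cells nor their share of the tissue was measured, and counts of whole liver do not place a transcript in a cell. The controls lacked Cre, and the LKO and control comparisons of the same sex share their mice with the comparisons between sexes.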
